A study of Mus musculus with 3 samples.

Results

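Binding of RXRα and RARα was described at 9 genes of bile acid synthesis, Cyp7a1, Cyp8b1, Cyp27a1, Cyp7b1, Cyp39a1, Hsd3b7, Amacr, Slc27a5 and Baat. They were taken by name from the 22380 protein-coding genes of GENCODE M1 on the mouse NCBI37/mm9 genome. There were 3 chromatin immunoprecipitation sequencing libraries from livers of male wild type C57BL/6 mice, labelled 3 months old. These were 1 library precipitated with an antibody to RXRα, 1 of input chromatin that was not precipitated, and 1 precipitated with an antibody to RARα (Santa Cruz sc-551x). The labels name no treatment and do not say how many mice gave each library. There was 1 library per antibody, so there was no replicate check, and the values describe these libraries only. The RXRα track held 10 M reads and the input track 9.999 M, while RARα was available as a peak list with scores and without reads, so its depth at each gene is unknown. Intervals given below cover the counting of reads only. Of 8 hepatocyte markers, 8 had a RARα peak on an RXRα region by the rules used here. The same was found for 0 of 5 Kupffer cell, 0 of 5 stellate cell, 0 of 4 cholangiocyte, 2 of 4 endothelial cell and 0 of 4 lymphocyte markers. The share over all protein-coding genes was 27.2%, and each list of 4 or 5 genes is too short to set 0 apart from it. An RXRα region, with or without RARα, was at 8, 1, 2, 1, 4 and 0 markers in the same order, against 47.9% of all genes. Binding at a gene is not its expression.

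Bile acids are made from cholesterol in hepatocytes. The classic route starts with Cyp7a1, the rate-limiting cholesterol 7α-hydroxylase, and the alternative route starts with the mitochondrial sterol 27-hydroxylase Cyp27a1 followed by the oxysterol 7α-hydroxylase Cyp7b1. Cyp39a1 hydroxylates 24-hydroxycholesterol, Hsd3b7 then oxidizes the sterol ring in every route, and Cyp8b1 adds the 12α-hydroxyl group that directs synthesis to cholic acid. Amacr converts the side chain to the stereoisomer that peroxisomal oxidation can shorten, and Slc27a5 and Baat join bile acids to coenzyme A and then to taurine or glycine. RXRα is the shared partner of RARα, FXR, LXR, PXR and PPARα, and such dimers are known to bind pairs of a short half-site. A direct repeat with n bases between the half-sites is called DRn, and an inverted repeat with 1 base between them IR1.

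The sequences below show the DNA under RXRα at each of the 9 genes, reaching 50 bases to either side of the middle of the 32 bp bin with the highest RXRα over input in the region shown, which is not always the highest region of the gene. They are shown because the RXRα enrichments below are measured at such bins. Capitals mark the half-site AGGTCA, the variant AGTTCA, the variant GGGTCA and the variant GGTTCA, or their reverse complements, and all windows are written 5′ to 3′ along the gene from NCBI37/mm9. Distances are from the start of the coding transcript to the middle of the bin.
Cyp7a1, 2966 bp upstream, chr4:6205694-6205794, - strand: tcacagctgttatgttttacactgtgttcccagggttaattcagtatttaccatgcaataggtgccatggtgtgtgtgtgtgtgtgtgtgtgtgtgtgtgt
Cyp8b1, 3103 bp downstream, chr9:121822270-121822370, - strand: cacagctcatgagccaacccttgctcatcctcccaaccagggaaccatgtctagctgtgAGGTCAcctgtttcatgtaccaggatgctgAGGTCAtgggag
Cyp27a1, 5820 bp downstream, chr1:74765918-74766018, + strand: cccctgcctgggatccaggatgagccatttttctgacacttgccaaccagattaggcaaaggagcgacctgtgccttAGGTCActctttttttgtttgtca
Cyp27a1, 7676 bp downstream, chr1:74767774-74767874, + strand: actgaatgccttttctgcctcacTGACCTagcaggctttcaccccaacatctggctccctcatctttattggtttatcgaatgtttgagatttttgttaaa
Cyp7b1, 51834 bp downstream, chr3:18091454-18091554, - strand: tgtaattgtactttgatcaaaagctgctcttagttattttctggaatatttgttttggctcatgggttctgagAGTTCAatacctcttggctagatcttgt
Cyp7b1, 19514 bp downstream, chr3:18123774-18123874, - strand: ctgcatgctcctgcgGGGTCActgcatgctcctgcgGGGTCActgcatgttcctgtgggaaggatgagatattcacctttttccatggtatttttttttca
Cyp39a1, 70 bp upstream, chr17:43804254-43804354, + strand: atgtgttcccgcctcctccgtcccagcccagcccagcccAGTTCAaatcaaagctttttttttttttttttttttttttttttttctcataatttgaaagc
Hsd3b7, 70 bp upstream, chr7:134943998-134944098, + strand: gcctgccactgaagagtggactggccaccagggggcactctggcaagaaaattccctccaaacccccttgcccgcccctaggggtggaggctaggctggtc
Amacr, 167 bp upstream, chr15:10911294-10911394, + strand: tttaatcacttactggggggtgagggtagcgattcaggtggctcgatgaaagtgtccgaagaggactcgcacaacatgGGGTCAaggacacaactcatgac
Slc27a5, 2085 bp downstream, chr7:13581406-13581506, - strand: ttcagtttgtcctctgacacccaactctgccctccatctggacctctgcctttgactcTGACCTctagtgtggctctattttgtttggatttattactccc
Baat, 14613 bp downstream, chr4:49504766-49504866, - strand: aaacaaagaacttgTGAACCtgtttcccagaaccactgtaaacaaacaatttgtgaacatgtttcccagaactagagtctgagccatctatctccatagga

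RARα and RXRα binding was found at all 9 genes, and 7 of them had both receptors at the same place. The search window ran from 10 kb on either side of the gene start to the end of the gene. All 9 had a RARα peak of score over 20 in this window, as did 57.9% of all protein-coding genes. All 9 had an RXRα region, defined as joined bins where RXRα reached 20 times the input (or 20 times the mean input of 0.603 per bin where the bin held less), against 47.9% of all genes. A RARα peak overlapping an RXRα region by at least 25% of the narrower of the pair, called co-localized here and meant by an overlap throughout, was present at 7 genes against 27.2% of all genes. Cyp39a1 and Baat were the exceptions. The study names Cyp7b1 among the lipid genes bound in these libraries. It also reports RXRα binding at all the bile acid synthesis genes in its set responding to retinoic acid and RXRα loss. The counts at the 9 genes come from the same libraries, so they are not independent evidence. The window had a median of 27136 bp at these genes and 25420.5 bp over all genes.

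In all, 101 RARα peaks of score over 20 lay in the 9 windows, and 79 of them were at Cyp7b1. The windows held 36 RXRα regions, with a median of 4 per gene against 0 over all genes. The highest RXRα enrichment, meaning RXRα over input in the best bin, had a median of 74.7 over the 9 genes and 19.9 over all genes. Over the 8 hepatocyte markers the medians were similar to those of the 9 genes, 4 regions and 68.9. RXRα regions overlapped a RARα peak of any score at 27 of 36 (75%), against 57.4% of the 29238 regions in the window of any gene. Without Cyp7b1, these were 19 of 28. Regions overlapping a RARα peak of score over 20 were 18 of 36 (50%), against 28.9%. The reverse share depended on Cyp7b1. Of the RARα peaks, 18 were co-localized (17.8%), and without Cyp7b1 13 of 22 were (59.1%), against 32.6% of the 26057 such peaks in the window of any gene.

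**Figure D1:**
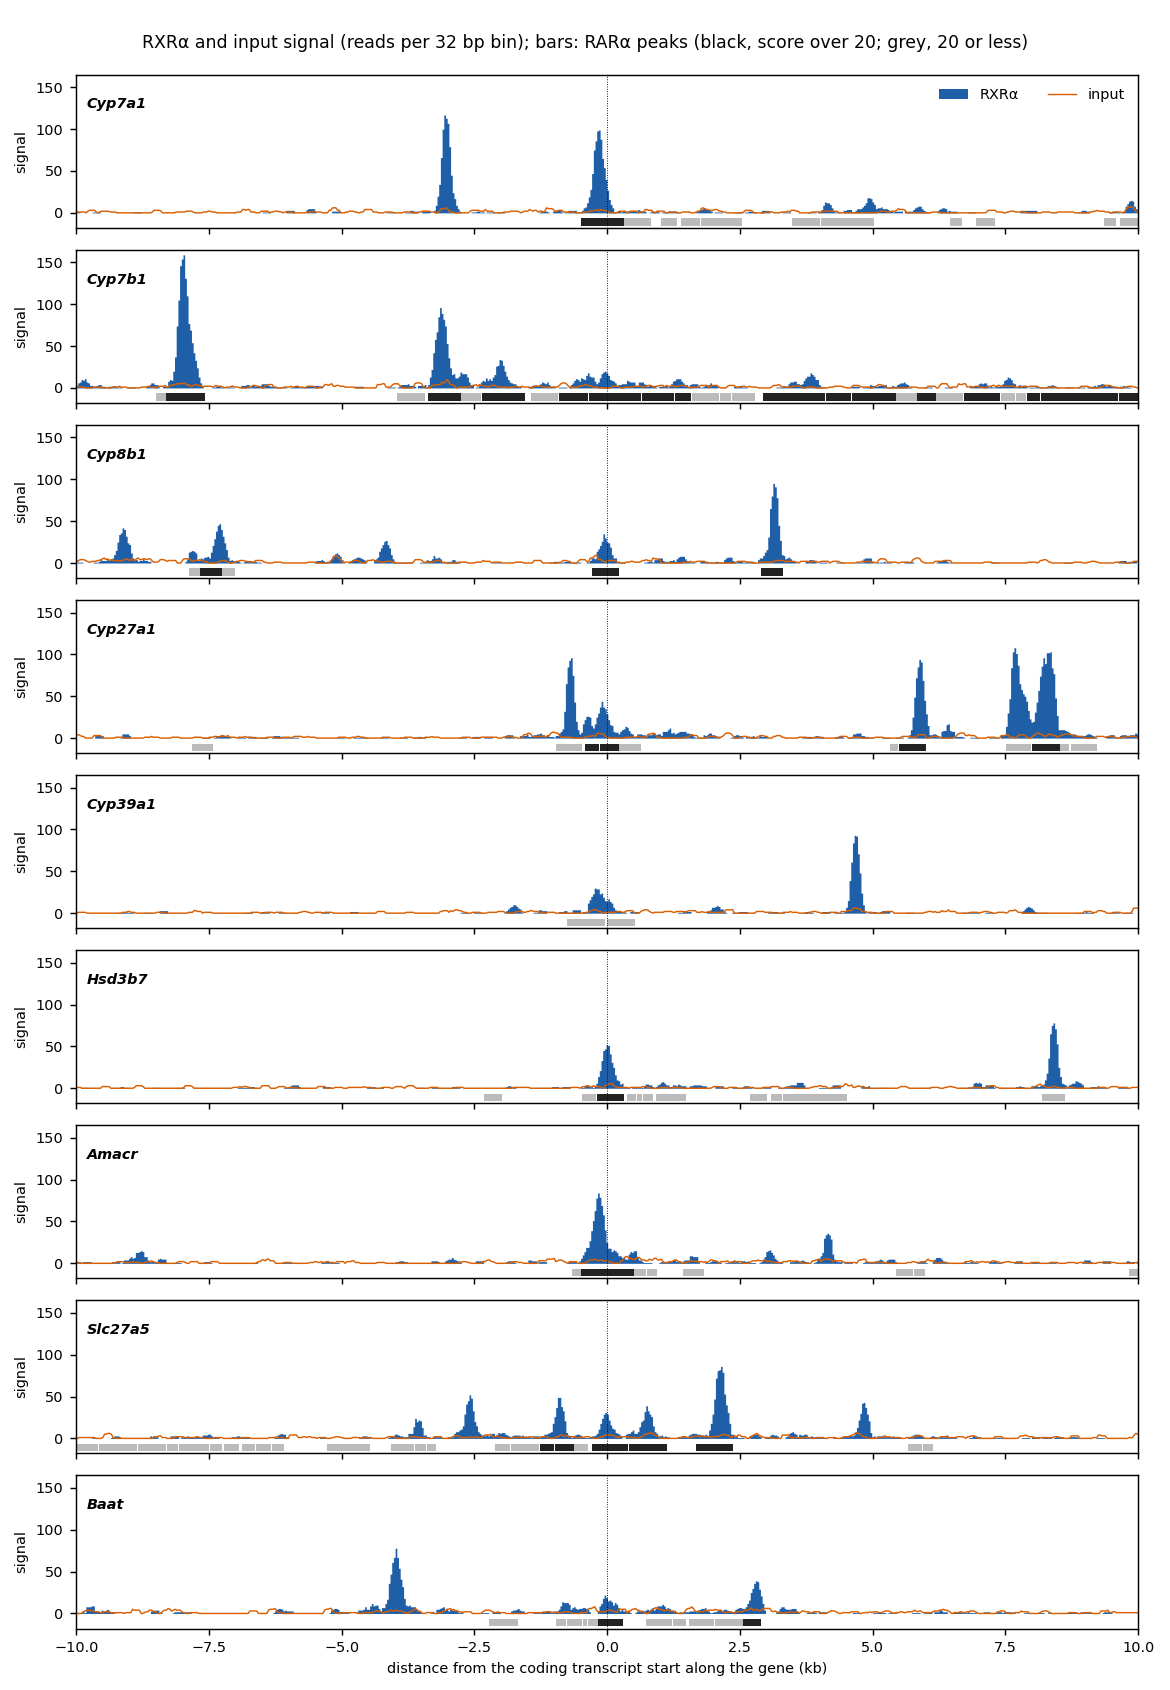
RXRα (blue) and input (orange) signal, in reads per 32 bp bin on 1 scale for all panels, against distance in kb from the coding transcript start of each gene, with RARα peaks as bars below the signal. Input stayed near the baseline in all 9 panels. RXRα stood at the start of the gene, upstream of it, inside it or past its end, and these places differed between genes. The RXRα peak at the right of the Hsd3b7 panel lies past the end of its window and is not counted.

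The starts of the genes were occupied in most cases. Within 1 kb of the coding start, 8 of 9 genes had a RARα peak of score over 20 (41.0% of all genes), 8 had an RXRα region (21.6%) and 7 had a co-localized peak (15.9%). The gene without a RARα peak there was Cyp39a1, and the gene without an RXRα region was Baat. The region counted at Slc27a5 was placed by its midpoint, and its highest bin was 1019 bp upstream. The RARα summit nearest these starts lay between 7 bp upstream, at Cyp8b1, and 114 bp downstream, at Amacr, for the highest-scoring peak of the 8 genes.

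Within 1 kb of the coding start, RXRα over input followed the order Cyp27a1, Cyp7a1, Hsd3b7, Slc27a5, Cyp39a1, Amacr, Cyp7b1, Baat and Cyp8b1. At Cyp27a1 there were 237 RXRα and 24 input reads, a ratio of 9.87 (95% exact Clopper-Pearson interval of the share, 6.48 to 15.7), which lay at the 97.6th percentile of all genes. At Cyp7a1 174 and 21 reads gave 8.29 (5.25 to 13.7), and at Hsd3b7 99 and 16 reads gave 6.19 (3.63 to 11.2). The genes of the first steps of both routes thus came first among the 9 genes. Their intervals overlapped those of Hsd3b7, Slc27a5, Cyp39a1 and Cyp7b1, so this order was not resolved. Among the genes of other steps listed below, Hsd17b4 (16.5), Acox2 (15.7), Slc27a2 (12.1) and Cyp2c70 (10.4) had higher ratios, and the rest had lower ones. At Slc27a5 the ratio was 5.79 (168 and 29 reads, interval 3.89 to 8.91). At Cyp39a1 it was 4.62 (74 and 16 reads, 2.67 to 8.51), at Amacr 4.49 (184 and 41 reads, 3.18 to 6.46) and at Cyp7b1 3.95 (87 and 22 reads, 2.45 to 6.63). These 4 genes were close together and their intervals overlapped. The lowest ratios were 2.30 at Baat (85 and 37 reads, 1.54 to 3.48) and 1.94 at Cyp8b1 (62 and 32 reads, 1.25 to 3.07), near the median of all genes of 1.77. The interval of each gene overlapped that of its neighbour in the order, while the interval of Cyp27a1 lay above those of Amacr, Baat and Cyp8b1.

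The RARα scores at the same starts followed another order. They were 111 at Cyp27a1, 107 at Cyp7b1 and Hsd3b7, 99 at Slc27a5, 97 at Amacr, 60 at Cyp7a1, 30 at Cyp8b1, 24 at Baat and 18 at Cyp39a1, where the peak was nearest to the start of Slc25a27. Cyp27a1 was first in both, and Baat and Cyp8b1 were low in both. Cyp7b1 and Cyp39a1 had similar RXRα ratios but lay near opposite ends of the scores. The median score of all RARα peaks over 20 was 33.

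**Figure D2:**
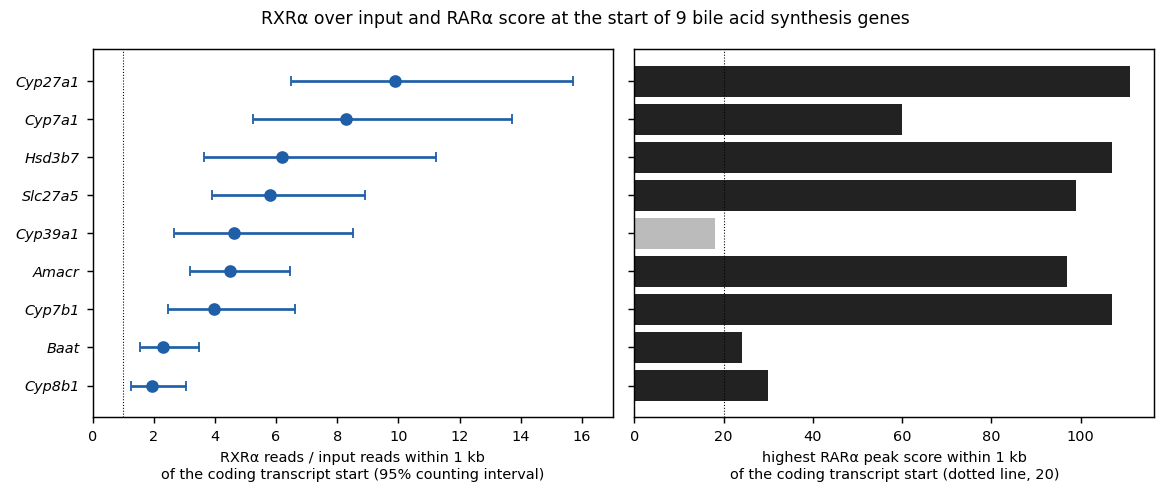
Left, RXRα reads over input reads within 1 kb of the coding transcript start, with 95% counting intervals. Right, score of the highest RARα peak with its summit in the same stretch, grey where it is not over 20. From the top, ratios ran from 9.87 at Cyp27a1 to 1.94 at Cyp8b1, and scores from 111 at Cyp27a1 to 18 at Cyp39a1 in another order.

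Cyp7a1 (ENSMUSG00000028240.2, chr4:6192759-6202780, minus strand) had 1 RARα peak of score over 20 and 3 RXRα regions. The RARα peak, of score 60, had its summit 13 bp downstream of the coding start in the UTR, and mean RXRα over mean input in it was 19.0. The RXRα region at this peak was highest 150 bp upstream, with a signal of 99 against 2 in input. Within 100 bp on either side there were 113 RXRα and 4 input reads, a ratio of 28.2 (10.7 to 105.5). The region with the highest enrichment at this gene, 79.0, was 2966 bp upstream and overlapped no RARα peak of any score. In a stretch of the same length it held 100 RXRα and 4 input reads, a ratio of 25 (9.46 to 93.5). The pair of RXRα peaks was therefore of similar size within counting error, and RARα was called at the promoter one. The third region, 4938 bp downstream in an intron, had 19 RXRα and 0 input reads and overlapped a RARα peak of score 11.

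Cyp8b1 (ENSMUSG00000050445.4, chr9:121823474-121825423, minus strand) is a gene of 1950 bp, and its RXRα binding was highest outside it. The region 3103 bp downstream of the start, 1154 bp past the end of the gene, had 91 RXRα and 2 input reads within 100 bp of its highest bin, as for all such read counts below, a ratio of 45.5 (12.2 to 381.4). A RARα peak of score 25 lay over it, with the summit 25 bp from the highest RXRα bin. At the promoter the RXRα region was narrower, 32 bp wide, with 36 and 4 reads, a ratio of 9.0 (3.23 to 34.8), under a RARα peak of score 30. Another co-localized pair was 7361 bp upstream, with 47 and 1 reads and a RARα score of 26. A region 4193 bp upstream, with 29 and 2 reads, overlapped no RARα peak. RARα scores thus ran from 25 to 30, a narrow range, at places where RXRα over input in the peak differed from 4.0 at the promoter to 22.1 past the end of the gene.

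Cyp27a1 (ENSMUSG00000026170.5, chr1:74760148-74784464, plus strand) had the highest RXRα enrichment of the 9 genes. It lay 7676 bp downstream of the start in an intron, in a region 928 bp wide, where the best bin held a signal of 108 for RXRα and 0 for input. Against the 3 counts that a count of 0 allows, RXRα was at least 36.0-fold higher there. The enrichment of 179 set against mean input was at the 98.8th percentile of the highest values of all genes. There were 119 RXRα and 2 input reads, and 3 RARα peaks overlapped the region, the highest with a score of 22. A second intronic region at 5820 bp had 85 and 3 reads under a RARα peak of score 24. The promoter had RXRα at 2 places. The region 644 bp upstream had 84 RXRα reads and 1 input read and overlapped a RARα peak of score 16, the only such peak by the 25% rule, and the region 4 bp upstream had 40 and 3 reads under the RARα peak of score 111. The remaining RARα peak, of score 38 at 253 bp upstream, shared a few bases with the region 644 bp upstream, too few to count as co-localized. The highest RARα score and the highest RXRα enrichment of this gene were thus at different places. The last 2 regions, 6428 and 10748 bp downstream, had 15 and 21 RXRα reads with 0 input reads.

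Cyp39a1 (ENSMUSG00000023963.8, chr17:43804374-43888380, plus strand) was a gene with both receptors but no co-localized peak. Its single RARα peak of score over 20, with a score of 27, was 33761 bp downstream in an intron, where mean RXRα over mean input was 0.882. Its RXRα regions were elsewhere. The promoter region 70 bp upstream had 28 RXRα and 2 input reads, a ratio of 14 (3.53 to 121.3), and overlapped a RARα peak of score 18. The summit of that peak, 269 bp upstream, lay in the neighbouring gene Slc25a27 and was nearest to its start. The regions 4602 and 17594 bp downstream, with 78 and 24 RXRα reads against 6 and 2, overlapped no RARα peak of any score. The start of Slc25a27 lay in the window, and no RARα peak of score over 20 and no RXRα region was nearest to it.

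Hsd3b7 (ENSMUSG00000042289.5, chr7:134929122-134947316, plus strand) showed both receptors together at 1 place, the start of its coding transcripts. The annotated gene start is that of a transcript without coding sequence, and the coding transcripts begin 14996 bp downstream. The RARα peak of score 107 had its summit 7 bp downstream of the coding start, and the RXRα region was highest 70 bp upstream of it, with 53 RXRα and 3 input reads, a ratio of 17.7 (5.73 to 88.4). Around the annotated gene start, by contrast, RXRα over input within 10 kb was 1.10 (0.833 to 1.44). The other 3 RARα peaks in the window, with scores of 26, 28 and 38, were nearest to the start of another gene, Setd1a.

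Amacr (ENSMUSG00000022244.6, chr15:10911511-10926379, plus strand) had 2 RARα peaks, of scores 64 and 97, both at the promoter and both co-localized. The summits were 246 bp upstream and 114 bp downstream, the latter in the coding sequence. The RXRα region 167 bp upstream had 96 and 5 reads, a ratio of 19.2 (7.95 to 60.5), and smaller regions 423 bp upstream and 121 bp downstream had 20 and 21 RXRα reads. RXRα over input in the upstream RARα peak was 15.5 and in the downstream one 5.69, so the higher RARα score was at the lower RXRα value. The fourth region, 8775 bp upstream with 17 reads and 1, lay in the neighbouring gene C1qtnf3 and overlapped no RARα peak.

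Slc27a5 (ENSMUSG00000030382.8, chr7:13573695-13583541, minus strand), the bile acyl-CoA synthetase, had 5 RARα peaks and 5 RXRα regions. The highest RARα score, 99 at 16 bp downstream of the start, was not on an RXRα region, and RXRα over input in this peak was 5.34. The co-localized peaks were a peak of score 40 at 2076 bp downstream and peaks of scores 32 and 26 at 769 and 1079 bp upstream. The first lay on the region with the most RXRα reads of the gene, 95 against 4, a ratio of 23.7 (8.98 to 88.9), with the highest bin 9 bp from the RARα summit. The upstream peaks shared the region highest 1019 bp upstream, with 30 RXRα reads and 1 input read. The region with the highest enrichment, 48.1 at 4901 bp downstream, had 36 reads and 1 and overlapped no RARα peak, as did the region 2555 bp upstream with 51 and 2 reads. The fifth region, 3547 bp upstream with 24 and 2 reads, overlapped a RARα peak of score 12, and the remaining RARα peak, of score 31 at 751 bp downstream in a coding exon, was on no region.

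Baat (ENSMUSG00000039653.3, chr4:49502294-49519429, minus strand), the enzyme of the last step, had RARα peaks of scores 24 at its start and 22 at 2754 bp downstream. Neither was on an RXRα region, and RXRα over input in them was 3.60 and 5.32. The second had the highest false discovery rate of the 101 peaks, 1.15 percent. The RXRα regions were 14613 bp downstream in an intron, with 33 and 2 reads, and 3947 bp upstream, with 80 and 4 reads, a ratio of 20 (7.51 to 75.2). The former overlapped a RARα peak of score 7 and the latter none. Baat and Cyp39a1 thus lacked co-localized peaks at a score over 20 but had a weak RARα peak over 1 RXRα region each. With RXRα regions set at 10 times input, 1 RARα peak of Baat was co-localized, and 2 were at 5 times input or with mean input only.

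Cyp7b1 (ENSMUSG00000039519.6, chr3:17971950-18143338, minus strand) had the most RARα peaks of score over 20 of the 9 genes. It had 79 RARα peaks of score over 20, rank 8 among all genes, and 244 of any score, in a gene of 171389 bp. Peaks of score over 20 covered 20.2% of the gene, rank 5 of 2401 genes of at least 100 kb, whose median was 0.261%. Peaks of any score covered 48.6% of Cyp7b1, close to the 49.5% at Cyp7a1. Scp2, which acts in another step of the pathway, had 99 peaks of score over 20. Of the 79 peaks 74 were more than 1 kb downstream of the start, and the most distant summit was at 86278 bp. Their scores were 21 to 44 with a median of 25.5, while the peak at the start had a score of 107, and 37 began within 10 bp of the end of the peak before. Merging such abutting peaks left 56 peaks over the 9 genes. RXRα was low in most of this stretch. In the 74 peaks mean RXRα over mean input had a median of 1.41 (range 0 to 10.6) and 1 was co-localized. The number for all of Cyp7b1 depended on the RXRα threshold, with 5 co-localized peaks at 20 times input, 9 at 15, 14 at 10 and 38 at 5 times, while its RXRα regions went from 8 to 14, 30 and 84. Over the whole gene, 1713 RXRα and 1249 input reads gave 1.37 (1.27 to 1.48). The median input signal in these peaks was 1.19 per bin, against a median of 0.615 over the bodies of all genes and 1.17 over the body of Cyp7b1. The input was made for RXRα, and its part in the RARα peaks was not tested.

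The 8 RXRα regions of Cyp7b1 were sharp. The tallest, 7910 bp upstream of the start, reached a signal of 159 and had 151 RXRα and 5 input reads, a ratio of 30.2 (12.7 to 94.3), under a RARα peak of score 34. The others upstream were at 3142 bp with 110 and 7 reads, at 2630 bp with 16 and 2 reads, and at 2022 bp with 37 and 2 reads. RARα peaks of scores 25 and 61 lay over the first and the last of these. At 38 bp upstream there were 22 RXRα and 0 input reads under the RARα peak of score 107. In the gene, the region 51834 bp downstream, with 60 and 3 reads, was co-localized with a RARα peak of score 37. The regions at 19514 and 74298 bp, with 24 and 45 RXRα reads against 2 each, overlapped RARα peaks of score 20, which is just outside the score threshold.

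**Figure D3:**
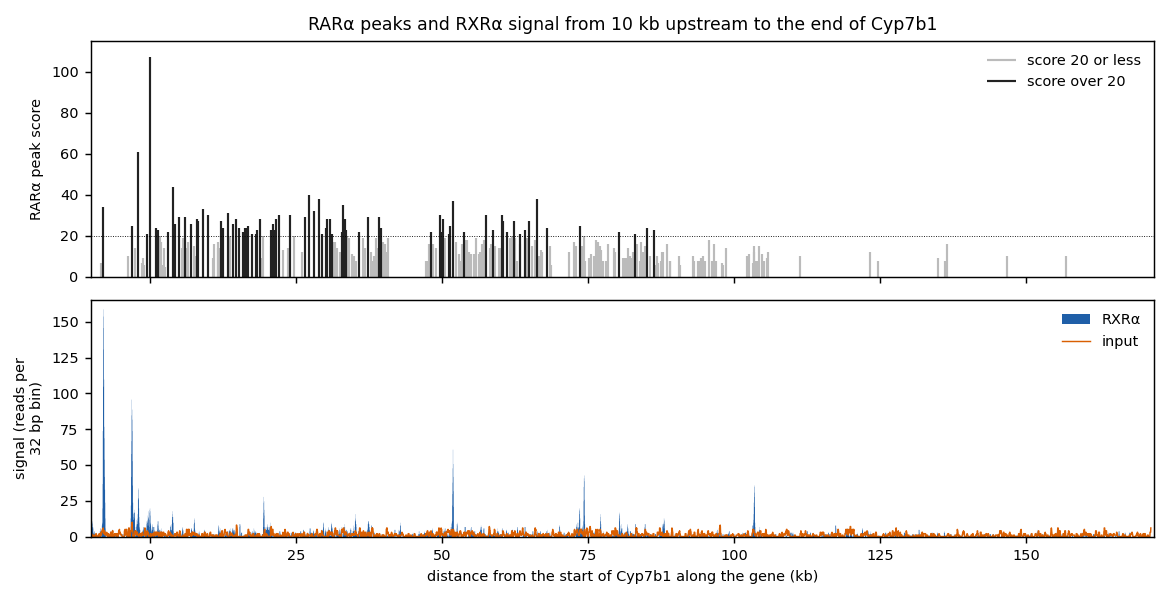
RARα peak scores at their summits (top, black over 20, grey 20 or less) and RXRα and input signal in reads per 32 bp bin (bottom) from 10 kb upstream to the end of Cyp7b1, against distance from the start in kb. RARα peaks of score over 20 reached 86278 bp from the start, while RXRα stood above input at single narrow places.

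RARα peaks of score over 20 covered 18.3% of the body of Slc27a5 and 11.4% of that of Cyp8b1. At the 6 genes other than these and Cyp7b1 this share was 0.548% (Cyp39a1) to 5.20% (Cyp27a1). It was 3.09% at Cyp7a1, a gene about as long as Slc27a5. The contrast between Cyp7a1 and Slc27a5 depended on the score threshold and reversed without it. Peaks of any score covered 49.5% of the body of Cyp7a1 and 23.0% of that of Slc27a5. The input signal per bin over the gene body was 1.67 at Baat, 1.54 at Slc27a5, 1.5 at Cyp8b1 and 1.45 at Amacr, and it was lowest at Hsd3b7 with 0.714 and Cyp39a1 with 0.677. Its part in the number of RARα peaks was not tested. Over whole bodies, RXRα over input was highest at Cyp27a1 with 4.15 (3.55 to 4.86) and Slc27a5 with 3.71 (2.95 to 4.70), and lowest at Cyp39a1 with 1.22 (1.06 to 1.41).

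**Figure D4:**
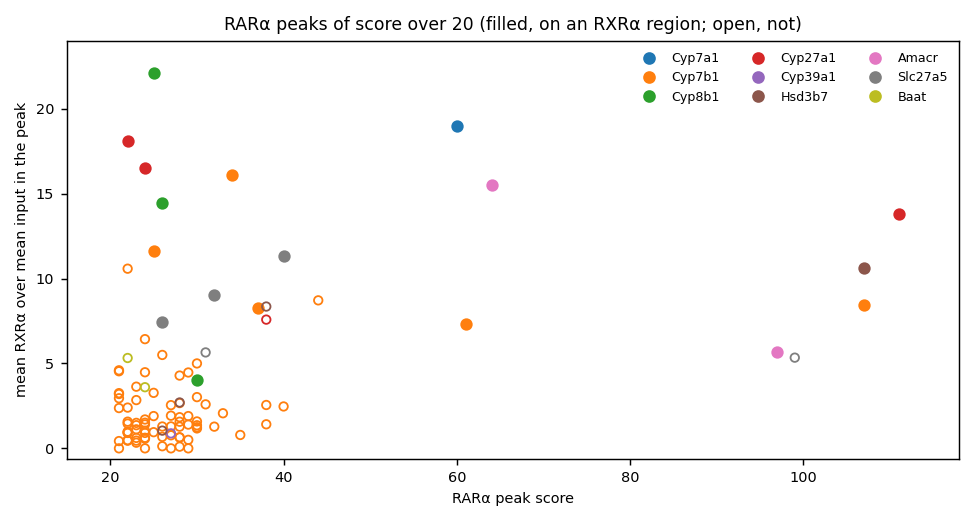
Mean RXRα over mean input in each of the 101 RARα peaks against the RARα peak score, coloured by gene. Filled points overlap an RXRα region, and open points do not. Most open points are Cyp7b1 peaks of scores 21 to 44, and the Slc27a5 promoter peak of score 99 is open.

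By annotation, 14 of the 36 RXRα regions were highest in introns and 20 outside protein-coding genes. Of the others, 1 was in a coding exon, that of Amacr, and 1 in C1qtnf3. Those outside genes include promoter regions, such as the ones 4 bp upstream of Cyp27a1 and 38 bp upstream of Cyp7b1. The 36 regions were narrow, with a median width of 128 bp, and their enrichment had a median of 31.5 against 34.8 over all 42117 regions. At co-localized peaks the median distance from the RARα summit to the highest RXRα bin was 68 bp. The overlap rule itself favours short distances, so this value is not separate evidence of a shared place. Of the RARα peaks 79 were in introns, 12 outside protein-coding genes, 6 in UTRs, 2 in coding exons and 2 in Setd1a. Cyp7b1 alone held 74 of the intronic peaks. Shares by annotation over all regions and all RARα peaks are not given here.

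Pairs of half-sites were sought on both strands within 100 bp of the highest bin of each region, as direct repeats DR1 to DR5 and as IR1, with the half-sites spelled as in the windows above. None of the 36 regions held an exact pair, against 3.33% of all regions and 0.667% of windows 2 kb away. A single half-site was in 25 of 36 (69.4%), against 64.8% of all regions and 38.5% away from them. Half-sites are also parts of every pair. The extended half-site, TCA before AGGTCA, was in 0 of 36 and in 1.45% of all regions. A missing match says only that these letters are not in these windows.

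With 1 mismatch allowed, 7 of 36 regions (19.4%) held a pair, against 26% of all regions and 8.89% away from them. Examples are printed with the half-sites in capitals, along the gene, and not all of the 7 are described here. At the Cyp8b1 region past the end of the gene, a DR3 and a DR4 lay 16 and 46 bp from the highest bin, and the upstream copy in each is in capitals in the window printed above:
Cyp8b1, DR3, chr9:121822297-121822311: AGGTCAcctGTTTCA
Cyp8b1, DR4, chr9:121822266-121822281: AGGTCAtgggAGGGCA
At Cyp7b1 there was a DR3 in the intronic co-localized region 51834 bp downstream and a DR2 84 bp from the highest bin of the region 2630 bp upstream. Cyp39a1 had a DR4 in the region 17594 bp downstream, Slc27a5 a DR3 in the region 2085 bp downstream and Baat a DR2 in the region 14613 bp downstream:
Cyp7b1, DR3, chr3:18091476-18091490: GGTTCTgagAGTTCA
Cyp39a1, DR4, chr17:43821932-43821947: TGAAATgtatTGACCT
Baat, DR2, chr4:49504847-49504860: AGAACTtgTGAACC
In the window at 19514 bp of Cyp7b1 the half-site GGGTCA stood in a tandem copy, with a spacing outside that searched. The Hsd3b7 promoter region and the upstream region of Cyp7a1 showed no half-site in their printed windows.

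The promoters of these genes were mostly poor in CpG. In the 250 bases before and 50 bases from the coding start, CpG counts were 2 at Baat, 3 at Hsd3b7, 4 at Cyp7a1 and Slc27a5, 5 at Cyp8b1, 9 at Cyp27a1, 11 at Cyp39a1, 12 at Cyp7b1 and 18 at Amacr. The median over all genes was 12. Co-localized binding at the start occurred at Hsd3b7, with 3 CpG, and at Amacr, with 18, while Baat, with the fewest, had none.

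Other genes of the pathway were bound by both receptors in most cases. Of 11 genes of other steps, 10 had a RARα peak, 10 an RXRα region and 8 a co-localized peak, against 57.9%, 47.9% and 27.2% of all genes, and none had neither. The highest enrichment was at Hsd17b4 (159), Scp2 (141) and Slc27a2 (101), which act in peroxisomal shortening of the side chain or its activation. Ch25h, the cholesterol 25-hydroxylase, had a RARα peak without an RXRα region, and Cyp46a1, the 24-hydroxylase of the brain, an RXRα region without a RARα peak. All 12 regulators, a list that includes nuclear receptors, had RARα, RXRα and co-localized peaks, with the highest enrichment at Hnf4a (159), Nr1i2 (136) and Ppara (130). The median ratio within 1 kb of the start was 4.62 over the 9 genes, 4.88 over the other steps and 5.85 over the regulators, against 1.77 over all genes. It was 4.49 over the 8 hepatocyte markers, close to the value of the 9 genes. The windows of the other steps and the regulators were longer, with medians of 43981 bp and 51060 bp.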

How the data were processed

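Chromatin from mouse liver was sequenced in 3 libraries (RXRα, input and RARα). Per the labels, the authors used CASAVA 1.4 and Bowtie, and MACS for RARα. The methods name mm10 for alignment and NCBI37/mm9 for annotation. The track headers name mm9, and NCBI37/mm9 with GENCODE M1 was used throughout. The authors deposited RXRα and input as signal, whole-number coverage in 32 bp bins, 5 bins per read. The RXRα track is named as normalized signal. Read numbers given here are track coverage divided by 5, and the intervals treat them as raw counts. The tracks hold fewer RXRα reads than the study sequenced, and how those were chosen is not given in the sources used here. For RARα the authors deposited a peak list with a score and a false discovery rate in percent. The study's results name a score over 20, and its methods name a background limit of 20 fold of input. The list does not say that the score is this fold, so the score was used only as a threshold and an order.

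The tracks were brought to 1 mean. Bins within 200 bp were joined into regions. RARα peaks were placed by summit and RXRα regions by midpoint. Read ratios carry exact 95% Clopper-Pearson intervals. No p-values were computed, since genes and peaks of 1 library are not replicates. All 9 genes are named with all their main values, and of the other lists the 3 genes with the highest enrichment and those without binding. Acox2 and Cyp2c70 are named for their ratios within 1 kb of the start. They, Ch25h and Cyp46a1 were named after their values were seen. The genes and lists were chosen with earlier results of these data known. Region detection and overlap were tested on simulated data. Alternatives were other RXRα and score thresholds, windows, overlaps, inputs, joins, scaling and motif settings. Expression data were not used here, and 1 of the sequences is not reported here. Python 3.11.15, numpy 2.4.6, pandas 2.3.3, scipy 1.17.1, pysam 0.24.0 and matplotlib 3.10.9 were used.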

Additional observations from a re-analysis of the deposited data

How the results depend on the processing

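Over 18 settings the number of the 9 genes with a RARα peak stayed at 6 to 9, with an RXRα region at 7 to 9, and with a co-localized peak at 5 (score over 50) to 9 (no score threshold). The number of RXRα regions, 36, became 171, 75 and 21 at 5, 10 and 30 times input, 10 within 1 kb of the gene start and 11 within 1 kb of the coding start. The number of RARα peaks, 101, became 363 without a score threshold, 8 at a score over 50, 12 within 1 kb of the gene start, 13 within 1 kb of the coding start, 37 within 10 kb without the gene body, 56 with abutting peaks merged and 22 without Cyp7b1. The median RXRα over input in the window, 2.18, became 4.49 within 1 kb of the gene start, 4.62 within 1 kb of the coding start, and 2.65 both within 10 kb without the gene body and from the coding start. Exact pairs of half-sites, 0, became 2 within 200 bp of the best bin and 7 with 1 mismatch, and 25 regions held a single half-site. The coding start, merged peaks, the omission of Cyp7b1 and the single half-site were chosen after seeing the data. Of 483 counts for single genes, 366 stayed within 1.5 times. The smaller windows and stricter thresholds keep fewer peaks by construction.

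There was 1 library per antibody and no replicate. In 20 of the 36 regions the best bin had 0 input, so its enrichment rests on mean input, and intervals are wide. RARα reads were not used here, so RARα scores are given without an error estimate. No paired analysis was possible because each group has 1 library.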
